A study of Mus musculus with 24 samples.

Results

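Cells carrying a hairpin against Med12 (shMed12) were compared directly with cells carrying a hairpin against Cdk8 (shCdk8), to see what reduced Med12 gave in mouse embryonic stem cells (mESCs) that reduced Cdk8 did not. The comparison rests on 6 of the 24 poly-A RNA-seq libraries of the series, the 3 titled shMed12 and the 3 titled shCdk8, chosen by their titles and with every gene included. All are E14TG2a cells, a 129/Ola line derived from the blastocyst and kept without feeder cells in serum and LIF, the cytokine that holds mESCs in self-renewal. The 3 libraries of the hairpin control, shNMC, in the same state are set beside them as the level without either knockdown. Both hairpins and shNMC were also sequenced after retinoic acid (RA) at 1e-06 M for 24 h without LIF, in 3 libraries each. How many hairpins or clones stand behind each target is not in the labels, nor is it said that replicates were separate cultures. The p-values measure the spread within groups, estimated over all 24 libraries of the series. These include untransfected mESCs and mESCs with a hairpin against Ring1b (shRing1b). That spread may be technical.

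Mediator is the large complex that carries signals from DNA-bound transcription factors to RNA polymerase II. Its kinase module binds the core reversibly and holds Cdk8 or the paralogue Cdk19, cyclin C (Ccnc), Med12 or Med12l, and Med13 or Med13l. Med12 activates the kinase through cyclin C, and Med13 links the module to the core. A cell that loses Cdk8 can still build the module with Cdk19, whereas Med12 serves both kinases and has kinase-independent partners. The series as a whole addresses Med12 in Polycomb repression and in activation through noncoding RNA.

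Many contractile genes were higher with shMed12, and the promoters below are shown because they carry the CArG box, the motif bound by serum response factor (Srf), a regulator of actin cytoskeleton genes. The window runs from 250 bases before to 50 after the gene start, from RefSeq on GRCm38.p6 (the counts themselves are on mm9). The CArG box was searched on both strands and is in capitals. Of the 21 tested contractile genes with a promoter in the table, 6 held a box (28.6%), and all 6 were among the 17 such genes called higher. Of all 32851 promoters listed, 535 held one (1.63%), counted by promoter and not by gene. The list is of textbook contractile genes, Srf itself among them, so its larger share is no result of these data. As 17 of the 21 were called higher, the calls of the 6 single out no group. A match describes letters and shows no binding.
Cnn2, chr10:79988350-79988649, plus strand: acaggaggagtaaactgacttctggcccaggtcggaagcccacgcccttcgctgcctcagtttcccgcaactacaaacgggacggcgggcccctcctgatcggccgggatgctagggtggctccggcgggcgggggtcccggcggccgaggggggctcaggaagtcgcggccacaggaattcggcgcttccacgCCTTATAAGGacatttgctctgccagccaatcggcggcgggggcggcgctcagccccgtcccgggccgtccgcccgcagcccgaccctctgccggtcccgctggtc
Myl9, chr2:156775214-156775513, plus strand: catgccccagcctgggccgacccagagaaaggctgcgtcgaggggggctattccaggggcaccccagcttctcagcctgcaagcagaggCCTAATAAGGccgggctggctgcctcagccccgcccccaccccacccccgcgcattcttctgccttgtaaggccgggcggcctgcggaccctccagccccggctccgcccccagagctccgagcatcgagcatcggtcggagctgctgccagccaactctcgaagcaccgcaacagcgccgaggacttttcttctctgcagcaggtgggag
Acta1, chr8:123894726-123895025, minus strand: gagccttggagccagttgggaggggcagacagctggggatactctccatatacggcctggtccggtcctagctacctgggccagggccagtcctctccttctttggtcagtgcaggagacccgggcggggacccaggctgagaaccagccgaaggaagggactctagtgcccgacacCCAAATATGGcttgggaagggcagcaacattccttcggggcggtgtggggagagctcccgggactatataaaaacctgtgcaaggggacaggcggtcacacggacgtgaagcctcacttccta
Srf, chr17:46556113-46556412, minus strand: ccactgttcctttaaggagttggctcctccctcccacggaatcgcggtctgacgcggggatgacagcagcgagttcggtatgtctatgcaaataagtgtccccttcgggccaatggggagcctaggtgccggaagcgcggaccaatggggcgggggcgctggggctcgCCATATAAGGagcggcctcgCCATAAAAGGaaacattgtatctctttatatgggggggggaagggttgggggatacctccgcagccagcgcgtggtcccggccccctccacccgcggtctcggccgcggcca

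The other pair of promoters belongs to Zscan4c and Zscan4d, members of a multicopy family that marks the rare 2-cell-like state of mESC cultures. They are shown because 50 bp reads have little to separate such copies by. Aligned without gaps over 289 bases they differed at 8, in capitals, and were 97.2% identical.
Zscan4c, chr7:11005495-11005794, plus strand: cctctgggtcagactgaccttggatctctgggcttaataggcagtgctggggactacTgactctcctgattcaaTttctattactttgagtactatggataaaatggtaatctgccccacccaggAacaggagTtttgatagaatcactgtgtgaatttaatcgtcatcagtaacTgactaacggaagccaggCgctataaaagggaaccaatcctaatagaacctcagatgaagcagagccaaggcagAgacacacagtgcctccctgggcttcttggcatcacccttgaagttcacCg
Zscan4d, chr7:11166099-11166398, minus strand: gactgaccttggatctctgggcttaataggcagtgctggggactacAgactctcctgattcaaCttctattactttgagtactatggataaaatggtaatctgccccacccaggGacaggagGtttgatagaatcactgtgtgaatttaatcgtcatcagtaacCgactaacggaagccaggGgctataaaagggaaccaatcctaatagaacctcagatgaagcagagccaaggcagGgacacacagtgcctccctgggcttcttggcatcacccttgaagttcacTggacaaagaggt

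Each hairpin lowered its own target and left the other's mRNA near the control. Med12 had 35.2, 43.7 and 46.2 CPM (read counts scaled to each library's gene total, with TMM factors) with shMed12, against 97.9, 120 and 131 CPM with shCdk8 and 131, 129 and 140 CPM with shNMC. The shMed12 libraries lay below all 6 others. The log2 difference, always shMed12 minus shCdk8, was -1.48 (SE 0.16, edgeR quasi-likelihood test, Benjamini-Hochberg adjusted p = 2.8e-07). Cdk8 had 57.3, 55.4 and 54.0 CPM with shMed12, against 15.2, 12.6 and 10.7 CPM with shCdk8 and 54.1, 56.1 and 50.1 CPM with shNMC. Here the shCdk8 libraries were the low ones, and the log2 difference was 2.12 (SE 0.15, adjusted p = 6.7e-10). Some target mRNA was thus left in both: Med12 averaged 41.7 ± 5.8 CPM with shMed12 and 133 ± 5.5 CPM with shNMC, and Cdk8 averaged 12.8 ± 2.3 CPM with shCdk8 and 53.4 ± 3.1 CPM with shNMC (SD, n = 3 each).

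The paralogues of the 2 targets differed too. Med12l, the paralogue of Med12, had 35.4, 39.0 and 32.2 CPM with shMed12, against 8.23, 9.13 and 11.3 CPM with shCdk8 and 8.59, 5.74 and 8.63 CPM with shNMC. It was higher in every shMed12 library (log2 1.89, SE 0.22, adjusted p = 6.1e-07), and shCdk8 stood close to shNMC. Cdk19, the paralogue of Cdk8, had 54.6, 56.0 and 50.1 CPM with shMed12, against 75.5, 71.6 and 64.7 CPM with shCdk8 and 74.9, 84.3 and 69.2 CPM with shNMC. It was modestly lower with shMed12 (log2 -0.40, SE 0.11, adjusted p = 0.0051). The shCdk8 minus shNMC log2 difference of Cdk19 was -0.11 (adjusted p = 0.63). Med13 (log2 -0.16), Ccnc (-0.20) and Med13l (-0.06) did not pass; with replicate number as a block Med13 (log2 -0.15, adjusted p = 0.0021) and Ccnc (log2 -0.19, adjusted p = 0.00074) did. Of 26 genes of the Mediator core, 2 were called higher (7.69%) and 3 lower (11.5%), against 18.4% and 17.4% of all genes tested. Of the 26, 24 had a 95% interval within 1.5-fold. Med14, the scaffold subunit, was the core gene with the lowest p (131 CPM with shMed12, 74.9 CPM with shCdk8 and 76.0 CPM with shNMC; log2 0.81). With the block, 8 core genes were called higher and 7 lower, where 5173 genes higher and 5094 lower were called among all genes.

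**Figure D1:**
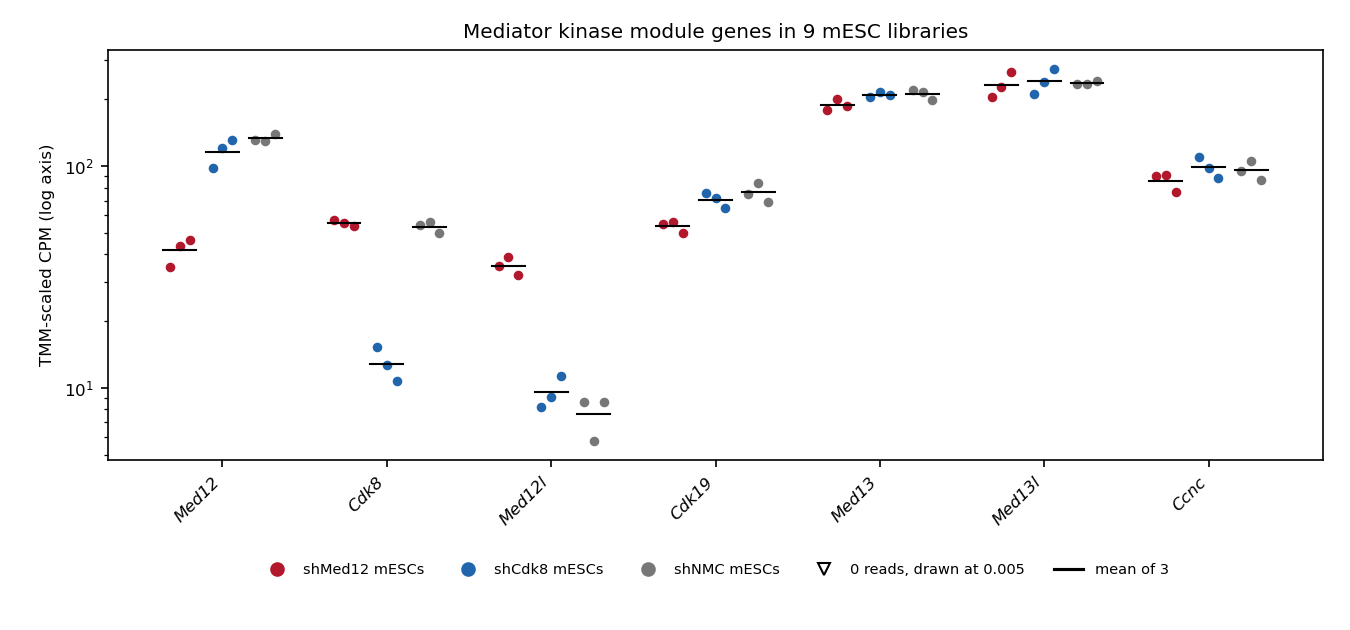
Levels of the 7 kinase module genes in the 9 mESC libraries of the 3 hairpins (TMM-scaled CPM, log axis; points are libraries, bars the mean of 3). Med12 is low with shMed12, Cdk8 is low with shCdk8, and Med12l is high with shMed12.

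The transcriptomes of the hairpins were far apart. Of 16280 genes tested, 5833 differed at an adjusted p under 0.05 (35.8%), with 2994 higher with shMed12 (18.4%) and 2839 lower (17.4%). At least 2-fold differences were called for 1487 higher genes (9.13%) and 959 lower genes (5.89%). A test against 2-fold itself called 765 higher (4.70%) and 357 lower (2.19%). At an unadjusted p under 0.05 there were 7212 (44.3%), and in 9082 genes (55.8%) the 3 libraries of one hairpin did not overlap the 3 of the other. At the other end, 6903 genes (42.4%) had a 95% interval within 1.5-fold and 10417 (64.0%) within 2-fold, while 2376 (14.6%) were neither called nor held within 2-fold. With the replicate block, in the 6 libraries alone, 10267 genes were called (5173 higher and 5094 lower), against 7428 in those libraries without it. Counts of list members called stand beside the shares of 18.4% higher and 17.4% lower over all genes. Counts with the block stand beside the larger numbers that the block called among all genes. The shares of 18.4% and 17.4% belong to the main fit and do not apply to counts with the block. For the block, genes were filtered anew in the 6 libraries, and the share called there is not given.

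The control placed most of the distance on the shMed12 side. Against shNMC, 6594 genes were called with shMed12 (40.5%; 20.6% higher and 19.9% lower) and 596 with shCdk8 (3.66%; 2.24% higher and 1.42% lower); the second count depends on which libraries estimate the spread, and 1494 genes higher and 1004 lower with shCdk8 were called from the 9 mESC libraries of the 3 hairpins. On the first principal component of those 9 libraries (89.9% of the variance of the 1000 most variable genes) shMed12 stood at 50.9 to 61.3, shCdk8 at -28.3 to -25.1 and shNMC at -31.7 to -30.8. The second (4.86%) set shCdk8 (-14 to -9.74) and shNMC (10.2 to 12.6) to either side of shMed12 (0.31 to 1.05). Of the 1487 genes at least 2-fold higher with shMed12, 1404 (94.4%) had an shNMC mean nearer to shCdk8 than to shMed12. Of the 959 at least 2-fold lower, 839 (87.5%) did. In 810 of the higher genes (54.5%) the shCdk8 mean lay between the other two, a smaller move in the direction of shMed12, in 594 (39.9%) shNMC lay between, nearer shCdk8, in 79 (5.31%) between, nearer shMed12, and in 4 (0.269%) shMed12 lay between. In 347 of the lower genes (36.2%) it did so, and in 492 (51.3%) shNMC lay between, nearer shCdk8, in 108 (11.3%) between, nearer shMed12, and in 12 (1.25%) shMed12 lay between. These are levels of genes chosen on 2 of the 3 groups, with no test.

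**Figure D2:**
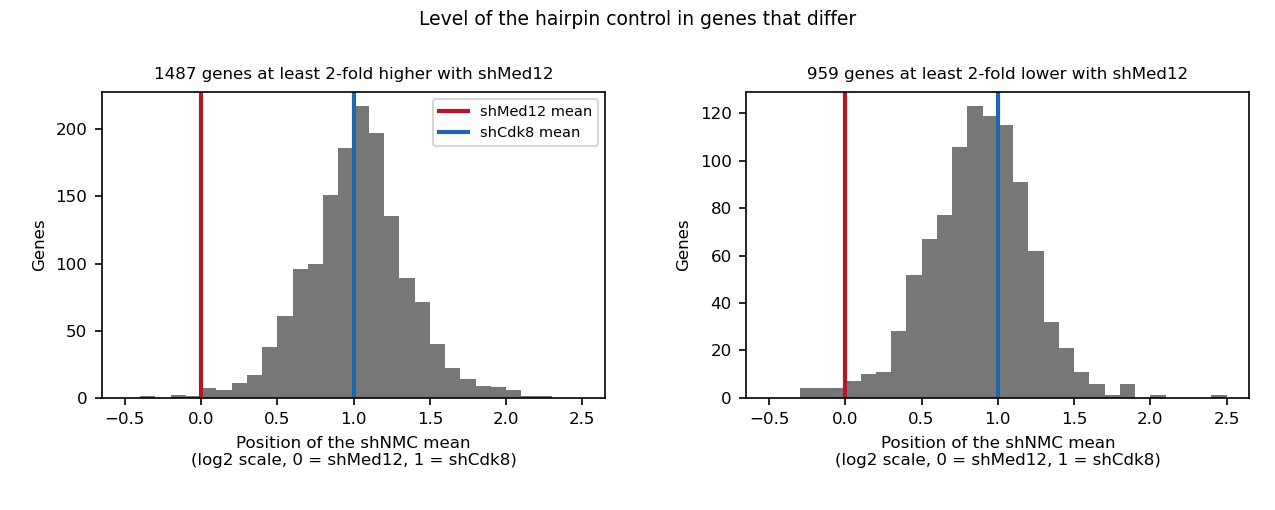
Position of the shNMC mean between the shMed12 mean (0) and the shCdk8 mean (1) on a log2 scale, for genes at least 2-fold higher (left, 1487) or lower (right, 959) with shMed12; bars count genes, and values beyond the axis are drawn at its ends. Both distributions are centred near the shCdk8 mean and reach beyond it, for 810 genes on the left and 347 on the right.

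Gene counts per library were 41226121 to 52623256 with shMed12, 37808426 to 56995896 with shCdk8 and 42757288 to 56544629 with shNMC, and 3 counts stood for 0.0542 to 0.0828 CPM. Replicates differed by more than counting noise (mean chi-square per gene 7.5 to 33.0). The third shMed12 library lay apart from its group (50.9 on the first component, against 60.8 and 61.3), and values of the genes that it moves are given by library. E14TG2a is known for a lost Hprt, and Hprt was at 0.71 CPM with shMed12, 0.98 CPM with shCdk8 and 0.78 CPM with shNMC. Gapdh, a gene with many pseudogenes, was at 9.77, 6.87 and 6.45 CPM in that order, and reads with several alignments, which count for no gene, made 45.9% to 49.1% of entries. In bulk RNA, fewer cells of a type and less RNA per cell cannot be told apart, here and in everything that follows.

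The largest rises with shMed12 were genes of the contractile cytoskeleton and the extracellular matrix. Tagln, an actin-bundling protein of smooth muscle, had 303, 264 and 251 CPM with shMed12, against 4.75, 4.02 and 3.90 CPM with shCdk8 and 2.33, 1.59 and 2.38 CPM with shNMC. The groups lay far apart (64.8-fold, log2 6.02, SE 0.42, adjusted p = 3.5e-10), and the shCdk8 minus shNMC log2 difference was 1.01 (adjusted p = 0.19). Acta2, smooth-muscle actin, had 56.6, 50.6 and 69.9 CPM with shMed12, against 1.27, 1.17 and 1.68 CPM with shCdk8 and 0.29, 0.16 and 0.27 CPM with shNMC. Acta2 was thus also higher with shCdk8 than with shNMC (log2 2.53, adjusted p = 0.032), though at a low level. Of 26 contractile genes tested, 20 were called higher (background 18.4%) and 1 lower, Mylk, singled out for its direction (0.55 CPM with shMed12, 1.25 CPM with shCdk8); their median log2 difference was 1.45, beside -0.01 over all genes. Abundant members moved with little spread: Tpm1, a tropomyosin, averaged 763 ± 98.6 CPM with shMed12, 129 ± 10.6 CPM with shCdk8 and 99.5 ± 1.2 CPM with shNMC (log2 2.56, SE 0.11), and Cnn2, a calponin, 204 ± 12.6, 34.7 ± 1.2 and 34.7 ± 2.5 CPM in the same order (log2 2.56, SE 0.11). Cnn2 is one of the CArG promoters printed above. Of the others, Myl9 averaged 16.6 CPM with shMed12 and 1.42 CPM with shCdk8 (log2 3.55), Acta1 13.2 and 0.59 CPM (log2 4.53), and Srf itself 47.0 and 27.4 CPM (log2 0.77); they were picked for that motif. With the replicate block 2 members were called lower.

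Caveolae, the membrane pits built by caveolins and cavins, followed. Cav1, the main caveolin of non-muscle cells, had 13.1, 12.4 and 9.29 CPM with shMed12, against 0.11, 0.13 and 0.18 CPM with shCdk8 and 0.042, 0.020 and 0 CPM with shNMC. It was near the detection limit outside shMed12 (log2 6.31, SE 0.32, adjusted p = 7.2e-12), and at that low level shCdk8 was above shNMC (log2 2.59, adjusted p = 0.023). Of 7 caveolar genes tested 5 were called higher (4 or 5 with a library left out) and none lower, among them Cav2, the partner of Cav1 (log2 5.23), and Ehd2, an ATPase at the caveolar neck (log2 2.48).

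Of 25 fibroblast and matrix genes, 14 were called higher and 3 lower (6 lower with the block), with a median of 1.34. Thbs1, the matrix protein thrombospondin 1, had 307, 298 and 253 CPM with shMed12, against 7.92, 7.24 and 5.60 CPM with shCdk8 and 3.16, 3.07 and 2.83 CPM with shNMC (log2 5.38, SE 0.50). Col3a1, a fibrillar collagen, had 6.62, 7.08 and 6.06 CPM with shMed12 and 0.028, 0.021 and 0.054 CPM with shCdk8, and 1 read over the 3 shNMC libraries. Its log2 difference of 7.41 (SE 0.39) was the highest of the genes with at least 5 CPM in a group, but it rests on 5 reads with shCdk8. Tnc, tenascin C, differed by 6.09. The 3 lower genes, named for their direction, were Pdgfra (1.85 CPM with shMed12 and 17.3 CPM with shCdk8), Thy1 and Timp1. As to fibroblasts or feeder cells in the cultures, their 9 markers summed to 32.9 to 35.7 CPM with shMed12, 20.1 to 22.1 CPM with shCdk8 and 16.3 to 18.5 CPM with shNMC, with 2 markers at 0 reads with shCdk8 and 1 with shNMC. The part of such cells in the rise was not tested.

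Epithelial keratins and trophectoderm regulators were higher with shMed12. Krt18, a keratin of simple epithelia, had 447, 370 and 348 CPM with shMed12, against 14, 13.8 and 14.2 CPM with shCdk8 and 10.6, 9.72 and 13.4 CPM with shNMC. The shMed12 libraries were over 20-fold above both other groups (log2 4.79, SE 0.29, adjusted p = 6.6e-11). Its partner Krt8 (log2 4.58), Krt19 (4.23) and Krt7 (5.30) were higher too, and 5 of 6 keratins were called higher. The sixth, Krt23, was called lower on 2 reads with shMed12 and 33 with shCdk8, and was not called in the fit of the 6 libraries alone.

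Of 14 trophectoderm transcription factors, 10 were called higher and none lower (none under any alternative), with a median of 1.82. Hand1, which drives trophoblast giant cells, had 18.8, 17.1 and 14.9 CPM with shMed12, against 0.19, 0.21 and 0.42 CPM with shCdk8 and 0.25, 0.16 and 0.37 CPM with shNMC. The 2 low groups overlapped, and shMed12 stood 59.2-fold over shCdk8 (log2 5.89, SE 0.29). Cdx2, the regulator that sets trophectoderm apart from the inner cell mass, had 7.16, 7.05 and 2.48 CPM with shMed12 and 0.25, 0.19 and 0.24 CPM with shCdk8 (log2 4.61, SE 0.50); the third shMed12 library was the low one. Gata2 (log2 3.14) and Eomes (log2 1.94, 26.7 CPM with shMed12 and 6.96 CPM with shCdk8) were higher too. The 4 that did not pass, Tcfap2a, Tcfap2c, Ets2 and Ascl2, differed by 0.14 to 0.47. The 5 trophoblast markers summed to 46.6 to 60.4 CPM with shMed12, 1.93 to 2.11 CPM with shCdk8 and 1.32 to 1.67 CPM with shNMC, and their part in the result was not tested.

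The primitive streak list was mixed: of 19 tested, 9 were called higher and 2 lower (1 without the second or the third shMed12 library, none without the first or the third shCdk8 library). T (brachyury), the mesoderm regulator, had 18, 17.4 and 3.32 CPM with shMed12, against 0.72, 0.49 and 0.54 CPM with shCdk8 and 0.37, 0.33 and 0.42 CPM with shNMC. Even the lowest shMed12 library exceeded all others (log2 4.48, SE 0.48; 4.94 without the third shMed12 library). Wnt3, the ligand that starts the streak, had 8.17, 9.18 and 4.01 CPM with shMed12 and 0.25, 0.15 and 0.29 CPM with shCdk8 (log2 4.93). Of Wnt target genes, 6 of 15 were called higher and 1 lower (4 lower with the block), with Axin2 at 43.9 CPM with shMed12 and 16.3 CPM with shCdk8 (log2 1.42) and Sp5 at 5.86 and 1.45 CPM (log2 2.02); 3 were called without the first shMed12, the second shMed12 or the third shCdk8 library. Of 12 primed-state genes, 6 were called higher and 3 lower. Among the higher ones was Dnmt3b, a de novo DNA methyltransferase, with 527, 541 and 549 CPM with shMed12, against 177, 173 and 160 CPM with shCdk8 and 196, 245 and 188 CPM with shNMC (log2 1.67, SE 0.14).

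Guanylate-binding proteins, interferon-inducible GTPases of cell-autonomous immunity, were among the largest rises. Gbp2 had 66.7, 63.0 and 32.4 CPM with shMed12, against 1.52, 0.85 and 0.65 CPM with shCdk8 and 0.54, 0.51 and 0.44 CPM with shNMC (log2 5.78, SE 0.38). Gbp1 ran alongside at 65.6, 62.8 and 30.9 CPM with shMed12 and 1.05, 1.21 and 0.79 CPM with shCdk8, and 0.35, 0.24 and 0.15 CPM with shNMC (log2 5.71). Gbp1 was also higher with shCdk8 than with shNMC (log2 2.01, adjusted p = 0.028). Gbp2 and Gbp1 were about halved in the third shMed12 library but clear of every other. Of 27 interferon and RNA sensor genes, 13 were called higher and 3 lower (7 lower with the block). The lower ones, named for their direction, included Oasl1, of the oligoadenylate synthetase-like family, at 1.25 CPM with shMed12 and 2.5 CPM with shCdk8 (log2 -0.99), and Stat2, a transducer of interferon signals (log2 -0.49). Oasl2, a paralogue of Oasl1, rose (log2 3.74).

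In genes of the 2-cell-like state shNMC lay between the hairpins. Zscan4a had 35.7, 40.1 and 23.9 CPM with shMed12, against 5.08, 4.60 and 3.27 CPM with shCdk8 and 11.2, 15 and 10.3 CPM with shNMC. No group overlapped another. The log2 difference was 2.95 (SE 0.43, adjusted p = 1.2e-05), made of 1.45 for shMed12 over shNMC (adjusted p = 0.0059) and -1.50 for shCdk8 over shNMC (adjusted p = 0.048). Of 17 such genes, 16 were called higher and none lower, with a median of 2.91. Against shNMC the median was 1.68 with shMed12, where 16 were called higher, and -1.21 with shCdk8, where 2 were called lower. The 6 Zscan4 copies differed by 2.85 to 3.10 and summed to 102 CPM with shMed12, 13.4 CPM with shCdk8 and 33.9 CPM with shNMC; reads shared by near-identical copies make each single copy uncertain. Tcstv3, another 2-cell gene, had 68.4, 69.7 and 44.1 CPM with shMed12, 10.9, 10.4 and 8.14 CPM with shCdk8 and 21.9, 27.7 and 20.5 CPM with shNMC (log2 2.63). The one gene that did not pass was Eif1a, at 397 CPM with shMed12 and 392 CPM with shCdk8.

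Galnt3 and Crb3 had the same order and were picked for it, being called in opposite directions from shNMC by the 2 hairpins. Such opposite calls were made for 61 of the 16280 genes tested. Galnt3, which starts O-linked glycosylation, had 22.7, 23.5 and 18.2 CPM with shMed12, against 2.04, 2.62 and 2.47 CPM with shCdk8 and 6.00, 4.07 and 5.90 CPM with shNMC (log2 3.17, SE 0.30). Its shCdk8 minus shNMC difference was -1.16 (adjusted p = 0.027). Crb3, an apical polarity protein of epithelia, averaged 19.97 ± 1.03 CPM with shMed12, 3.94 ± 0.40 CPM with shCdk8 and 9.11 ± 1.06 CPM with shNMC (log2 2.34, SE 0.25).

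**Figure D3:**
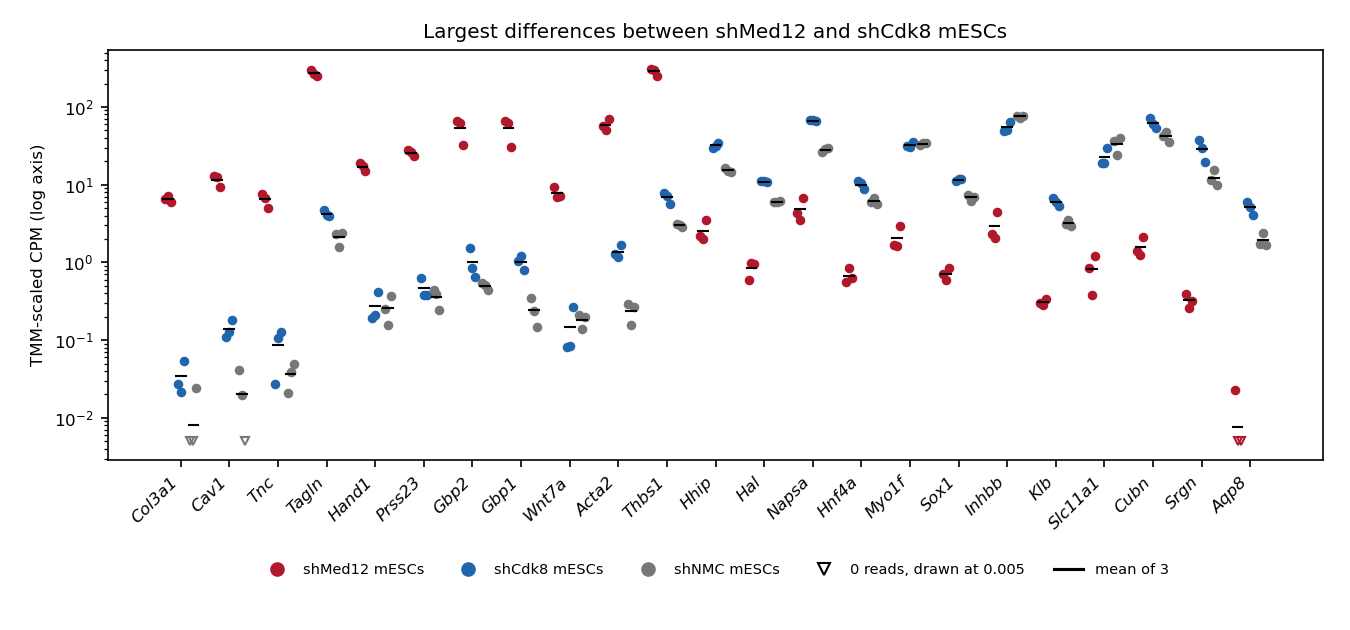
Levels of 11 of the 12 genes most raised and the 12 most lowered with shMed12 relative to shCdk8 (TMM-scaled CPM, log axis; points are libraries, triangles mark 0 reads, bars the mean of 3). In the raised genes the shMed12 libraries lie far above both other groups, while for most lowered genes shNMC lies between the hairpins or near shCdk8; for Inhbb and Slc11a1 it lies above both.

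Endoderm genes were lower with shMed12. Hnf4a, a regulator of visceral endoderm, had 0.55, 0.85 and 0.62 CPM with shMed12, against 11, 10.4 and 8.72 CPM with shCdk8 and 5.94, 6.83 and 5.70 CPM with shNMC. The shCdk8 libraries were the highest of the 9, and the log2 difference was -3.90 (SE 0.38, adjusted p = 4.0e-08). Cubn, an endocytic receptor of visceral endoderm, had 1.41, 1.26 and 2.14 CPM with shMed12, against 71.6, 61.1 and 53 CPM with shCdk8 and 42.7, 47.4 and 35.9 CPM with shNMC (log2 -5.25, SE 0.81). Srgn, a granule proteoglycan also found in parietal endoderm, had 0.39, 0.26 and 0.32 CPM with shMed12, against 37.1, 30.0 and 19.3 CPM with shCdk8 and 11.6, 15.4 and 9.83 CPM with shNMC (log2 -6.45, SE 0.77). For Hnf4a, Cubn and Srgn the shCdk8 minus shNMC differences were 0.70, 0.56 and 1.23, and none passed (adjusted p = 0.23, 0.70 and 0.23).

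Of 25 endoderm genes, 12 were called lower (background 17.4%) and 1 higher, with a median of -1.30. With shCdk8 minus shNMC no member of the list was called in either direction, and the median was 0.39. The higher gene, singled out for its direction, was Lrp2, an endocytic receptor that works with Cubn (400 CPM with shMed12, 179 CPM with shCdk8; log2 1.16). With the replicate block 16 were called lower and 4 higher. The 5 endoderm markers summed to 6.59 to 8.33 CPM with shMed12, 26.1 to 33.5 CPM with shCdk8 and 17.1 to 20.2 CPM with shNMC. The part of spontaneously differentiated cells in this difference was not tested.

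Pluripotency genes fell with shMed12, though not all alike. Klf4, a naive-state factor downstream of LIF, had 47.0, 52.1 and 53.5 CPM with shMed12, against 153, 154 and 168 CPM with shCdk8 and 186, 174 and 187 CPM with shNMC (log2 -1.64, SE 0.13, adjusted p = 1.8e-09). Prdm14, which guards the naive state, had 8.03, 8.23 and 9.16 CPM with shMed12, against 41.1, 41.4 and 37.6 CPM with shCdk8 and 45, 45 and 43.0 CPM with shNMC (log2 -2.24, SE 0.17). Sox2 averaged 439 ± 13.6 CPM with shMed12, 789 ± 33.3 CPM with shCdk8 and 805 ± 34.5 CPM with shNMC (log2 -0.85, SE 0.08). Nanog averaged 32.5 ± 3.6, 62.4 ± 6.2 and 62.4 ± 4.3 CPM in the same order (log2 -0.94, SE 0.17). In these 4 genes no shMed12 library reached the level of any other.

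Pou5f1 (Oct4), the core factor of pluripotency, had 607, 589 and 720 CPM with shMed12, against 802, 768 and 866 CPM with shCdk8 and 881, 917 and 936 CPM with shNMC. Its log2 difference of -0.35 (SE 0.12, adjusted p = 0.024) did not pass without the first or the second shMed12 library (adjusted p = 0.090 and 0.11) or without the third shCdk8 library (adjusted p = 0.10). Of 30 pluripotency genes, 22 were called lower and 3 higher (5 with the block), with a median of -0.78. The higher ones, named for their direction, were Dppa3 (15.5 CPM with shMed12, 2.67 CPM with shCdk8; log2 2.53), Lin28a (0.90) and Dppa4 (0.29). Dppa3 is also known from the early embryo and germ cells. The 10 markers of the pluripotent state summed to 3750 to 4062 CPM with shMed12, 5505 to 5681 CPM with shCdk8 and 6282 to 6329 CPM with shNMC, and the defining mRNAs of mESCs were abundant in all. Of 13 genes of the LIF pathway 3 were called higher (5 with the block) and 5 lower. The receptor Lifr fell (93.3 CPM with shMed12, 177 CPM with shCdk8; log2 -0.92), as did Stat3 (89.5 and 175 CPM; log2 -0.97), while Jak2 rose (34.7 and 17.7 CPM; log2 0.97).

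Germline genes were lower as well. Of 22 tested, 12 were called lower and 3 higher (6 higher with the block), with a median of -0.69. Stra8, the retinoid-induced gatekeeper of meiosis, had 6.62, 6.00 and 10.6 CPM with shMed12, against 62.3, 61.2 and 55.6 CPM with shCdk8 and 81.0, 62.7 and 77.9 CPM with shNMC (log2 -2.94, SE 0.20). Sohlh2, a germ-cell transcription factor, had 13.7, 13.4 and 13.3 CPM with shMed12, against 79.7, 75.7 and 67.8 CPM with shCdk8 and 36.2, 35.4 and 36.7 CPM with shNMC. No Sohlh2 group overlapped another (log2 -2.47, SE 0.17), and shCdk8 was above shNMC (log2 1.04, adjusted p = 0.00093). Piwil1, a piRNA-binding protein, showed that order at a lower level, with 0.32, 0.44 and 0.77 CPM with shMed12, 5.22, 5.87 and 5.34 CPM with shCdk8 and 2.72, 2.62 and 2.63 CPM with shNMC (log2 -3.40).

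Other large falls crossed several functions. Aqp8, a water channel, had 1 read over the 3 shMed12 libraries and 687 over the 3 shCdk8 libraries, a ratio of 0.0015 (95% counting interval 3.9e-05 to 0.0085), with 1.70, 2.40 and 1.67 CPM with shNMC. Napsa, an aspartic protease, had 4.34, 3.51 and 6.81 CPM with shMed12, against 66.9, 67.5 and 65.4 CPM with shCdk8 and 26.1, 28.8 and 29.8 CPM with shNMC (log2 -3.76, SE 0.26). Inhbb, the beta B subunit of activin and inhibin, had 2.31, 2.05 and 4.43 CPM with shMed12, against 49.2, 49.9 and 64.8 CPM with shCdk8 and 77.5, 71.7 and 77.3 CPM with shNMC (log2 -4.20, SE 0.32). In its pathway list 7 of 20 genes were called higher and 4 lower (2 lower without the first shMed12, the second shMed12 or the first shCdk8 library), and Tgfb2, a TGF-beta ligand, went the other way, with 17.8, 16.4 and 14.5 CPM with shMed12 and 0.94, 0.60 and 0.85 CPM with shCdk8 (log2 4.35). Sox1, an early neural factor, had 0.72, 0.59 and 0.85 CPM with shMed12, against 11, 12 and 11.8 CPM with shCdk8 and 7.45, 6.24 and 6.96 CPM with shNMC (log2 -4.00), while Nes, an intermediate filament of neural progenitors, averaged 77.7 CPM with shMed12 and 9.93 CPM with shCdk8 (log2 2.97). Kit, a receptor of stem and germ cells, averaged 42.2 CPM with shMed12, 125 CPM with shCdk8 and 159 CPM with shNMC (log2 -1.56). Ccnd2, a G1 cyclin, averaged 10.2 CPM with shMed12 and 41.6 CPM with shCdk8 (log2 -2.03), and Cdkn2a, the cyclin-dependent kinase inhibitor locus, 11.6 and 1.43 CPM (log2 3.01).

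Of 12 blood and endothelial genes tested, 6 were called lower and none higher (1 higher without the second shMed12 or the third shCdk8 library, 3 with the block). The 5 markers of those cells summed to 55.5 to 81.9 CPM with shMed12, 126 to 164 CPM with shCdk8 and 124 to 156 CPM with shNMC. Pecam1 alone made up most of each sum (means of 61.3, 136 and 135 CPM in that order). Of the rest, Tal1 and Cdh5 were lower with shMed12 than with shCdk8. Gata1 (1.74 and 1.06 CPM) and Ptprc (11 reads and 1 read) were higher. The part of such cells in the falls was not tested. Of 17 glycolysis genes 7 were called higher (4 without the third shCdk8 library, 13 with the block) and 3 lower (1 without the first shMed12 or the third shCdk8 library).

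Some genes were moved by the Cdk8 hairpin. Emx2, a forebrain and urogenital homeobox gene, had 0.67, 0.67 and 0.93 CPM with shMed12, against 5.85, 5.21 and 5.16 CPM with shCdk8 and 0.56, 0.73 and 0.54 CPM with shNMC. Its difference (log2 -2.83, SE 0.40, adjusted p = 7.5e-06) thus came with a raised shCdk8 level and an shMed12 level that overlapped the control. Atp1a4, a sodium pump subunit, had 4.45, 5.05 and 4.39 CPM with shMed12 and 7.43, 7.56 and 7.84 CPM with shCdk8, both above 0.52, 0.55 and 0.54 CPM with shNMC. Between the hairpins it did not pass (log2 -0.72, adjusted p = 0.057), but it did in the 6 libraries alone (adjusted p = 0.00041) and with the replicate block (adjusted p = 4.7e-06). Fgfbp1, a carrier of fibroblast growth factors, was raised by both, with 37.6, 37.0 and 26.7 CPM with shMed12, 8.56, 6.53 and 7.2 CPM with shCdk8 and 1.14, 1.89 and 1.6 CPM with shNMC (log2 2.19 between the hairpins). Txnip, an inhibitor of thioredoxin, had 167, 169 and 292 CPM with shMed12, 329, 380 and 579 CPM with shCdk8 and 1406.5, 623 and 1597 CPM with shNMC; its difference (log2 -1.04, adjusted p = 0.041) did not pass when either of the first 2 shMed12 libraries or the last 2 shCdk8 libraries was left out.

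In several gene groups most members differed by less than 1.5-fold. Of 24 cell cycle genes, 21 had a 95% interval within 1.5-fold and all 24 within 2-fold; 2 were called higher and 6 lower (10 with the block, and 3 without the first shMed12, the second shMed12 or the second shCdk8 library), all by less than 0.5 on the log2 scale. Of 30 cytosolic ribosomal protein genes, 28 did not pass, 1 was called higher and 1 lower (9 and 2 with the block), and 22 were within 1.5-fold. Of 20 genes of cholesterol synthesis, 17 did not pass (5 with the block) and 19 were within 2-fold. Polycomb subunits were mostly close: 13 of 21 PRC1 genes and 9 of 11 PRC2 genes were within 1.5-fold. PRC1 had 3 genes called higher and 2 lower (7 and 4 with the block), and PRC2 had 1 and 1 (3 and 4 with the block). Without the block these were 14.3% and 9.52% of PRC1 genes and 9.09% each way of PRC2 genes, below the 18.4% and 17.4% of all genes. Pcgf5, a subunit of variant PRC1, was the exception in size, with 42.6, 39.6 and 32 CPM with shMed12, 14.7, 15.3 and 13.7 CPM with shCdk8 and 15.1, 14.3 and 13.6 CPM with shNMC (log2 1.39, SE 0.15). Rnf2, the ubiquitin ligase of PRC1, averaged 219 CPM with shMed12 and 233 CPM with shCdk8 (log2 -0.09, SE 0.29), an estimate whose error leaves it wide.

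Other groups were less resolved. Of 38 Hox genes, which Polycomb represses in mESCs, 9 were called higher and 2 lower (6 and 6 with the block), and 27 did not pass. The shares called were 23.7% higher and 5.26% lower, against 18.4% and 17.4% of all genes. Against shNMC, 6 were called higher and 8 lower with shMed12 (median log2 difference 0.07). With shCdk8, 0 were called higher and 2 lower against shNMC (median -0.52). Hoxd9 had 2.84, 2.49 and 1.25 CPM with shMed12, against 0.11, 0.28 and 0.11 CPM with shCdk8 and 0.23, 0.35 and 0.47 CPM with shNMC (log2 3.69 between the hairpins). Between the hairpins, none of the 38 had an interval within 1.5-fold and 2 had one within 2-fold. Of 18 genes of the integrated stress response, 6 were called lower and none higher, and 15 were lower and 1 higher with the block; Aldh1l2, a mitochondrial folate enzyme, averaged 8.24 CPM with shMed12 and 39.7 CPM with shCdk8 (log2 -2.27).

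**Figure D4:**
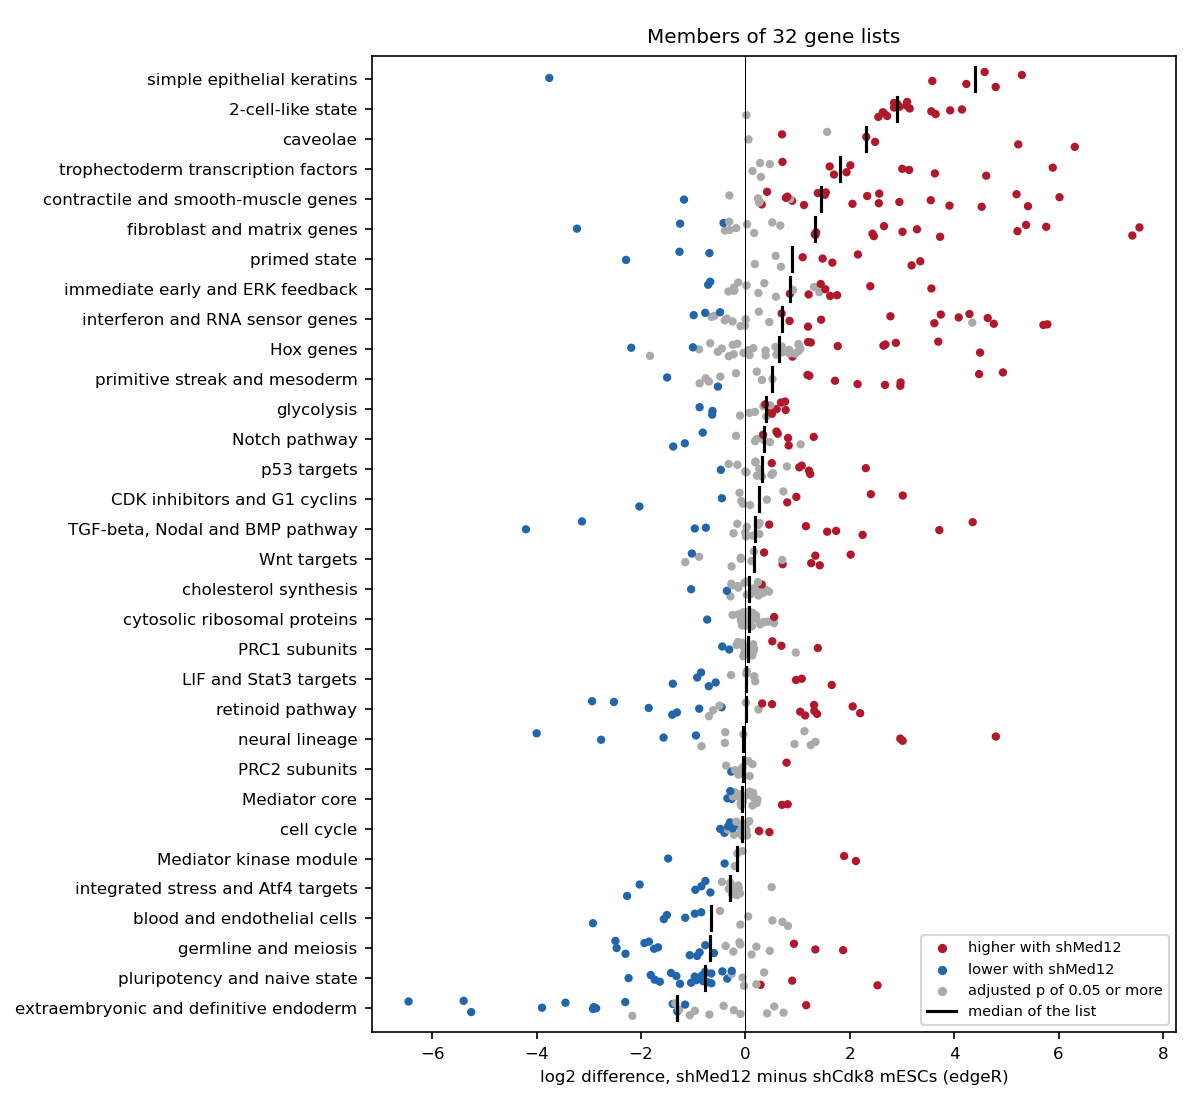
Log2 difference (shMed12 minus shCdk8, edgeR) of every tested member of 32 gene lists, ordered by the list median (black bar); red and blue points were called higher and lower with shMed12, grey points did not pass. Keratins (median 4.41) and 2-cell-like genes (2.91) lie at the top and endoderm genes (-1.30) at the bottom.

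Signalling lists split within themselves. Of 21 immediate early and ERK feedback genes, 8 were called higher, led by Fosl2, an AP-1 subunit, with 19.5, 18.6 and 15.7 CPM with shMed12, 1.52, 1.64 and 1.39 CPM with shCdk8 and 1.37, 1.67 and 1.77 CPM with shNMC (log2 3.56, SE 0.20). The phosphatases Dusp1 (log2 1.62) and Dusp4 (log2 1.76) rose with it, and 2 genes were lower (6 with the block, 1 with any of the 6 libraries left out). Of 21 retinoid pathway genes, 9 were called higher and 7 lower, among the lower ones the receptor Rarb, which averaged 0.36 CPM with shMed12 and 1.31 CPM with shCdk8 (log2 -1.85). Of 15 Notch genes 6 were called higher and 3 lower, with the ligand Dll1 at 3.4 CPM with shMed12 and 8.86 CPM with shCdk8 (log2 -1.38) and the target Hes1 at 19.3 and 43.1 CPM (log2 -1.16). Among p53 targets 6 of 19 were called higher (14 with the block) and 1 lower (3 with the block, none with any of the 6 libraries left out), Perp with the lowest p (111 and 22.5 CPM; log2 2.31).

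After 24 h of RA the same hairpins, in other libraries of the series, differed in many of the same genes. Whether both states came from the same hairpin cells is not in the labels, and the fit does not link them. Of 16280 genes 6747 were called (41.4%; 21.3% higher and 20.1% lower), at least 2-fold in 1093 higher (6.71%) and 1285 lower genes (7.89%). Of the 1487 genes at least 2-fold higher with shMed12 in mESCs, 807 were at least 2-fold higher after RA too, which is 54.3% of them and 73.8% of the 1093 found after RA. Of the 959 lower genes 663 were shared, 69.1% of them and 51.6% of the 1285 after RA. Of the higher genes 30 (2.02%) and of the lower genes 2 (0.209%) were called after RA in the opposite direction. Tagln (log2 5.39 after RA), Krt18 (4.18), Hand1 (4.71), Hnf4a (-4.20) and Zscan4a (2.83) differed in the same direction, as did Med12 (-1.43) and Cdk8 (2.28), and for none of these 7 did the interaction below pass. The difference itself changed between states for 807 genes (4.96%; 1.82% with a higher and 3.14% with a lower log2 difference after RA), tested as an interaction. For Cav1 it was 4.24 after RA and 6.31 in mESCs, for Gbp2 2.93 after RA and 5.78 in mESCs, and for Sox1 -1.96 after RA and -4.00 in mESCs.

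**Figure D5:**
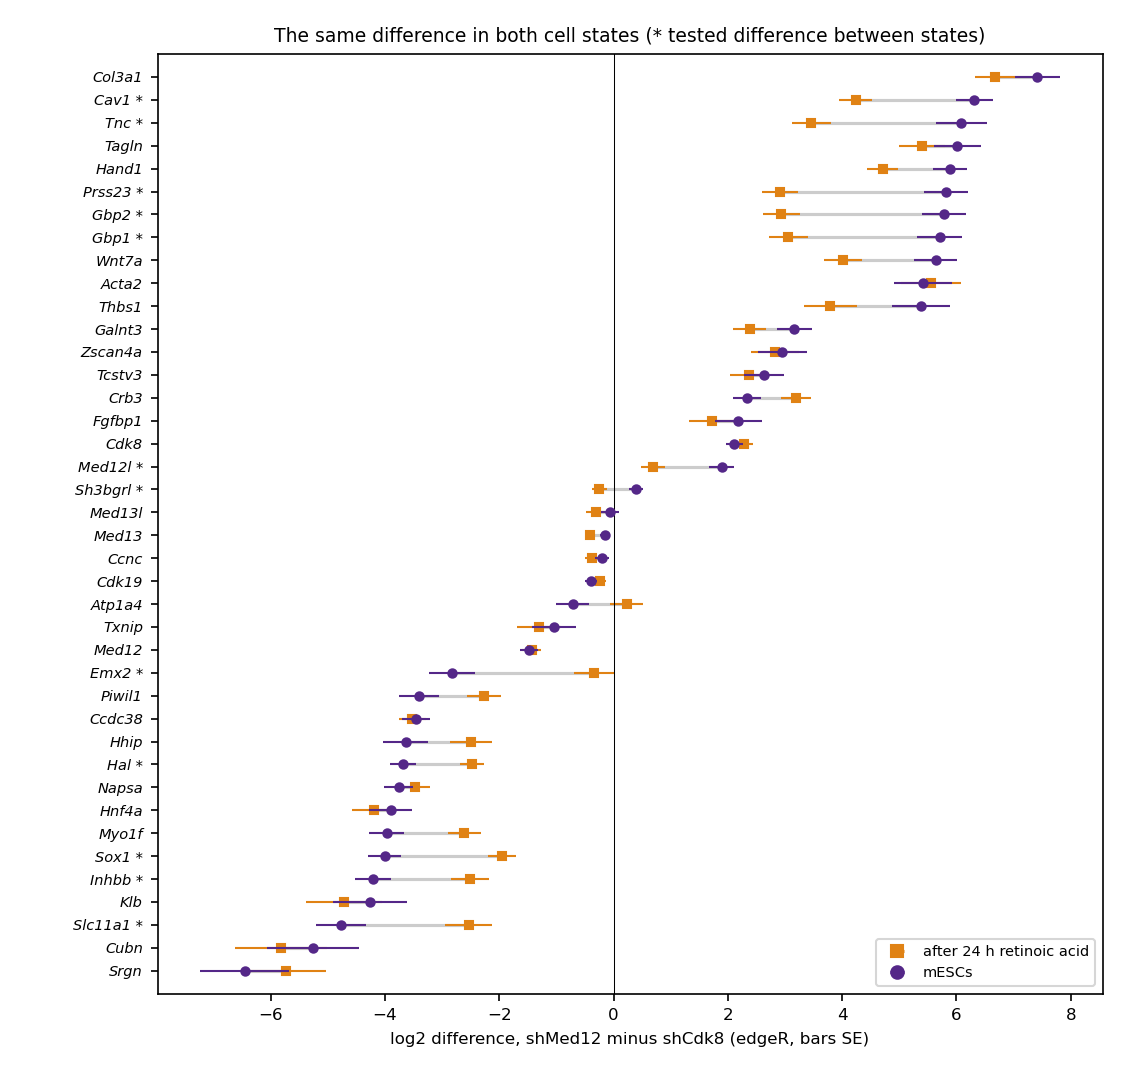
Log2 difference between shMed12 and shCdk8 after 24 h of RA (orange squares) and in mESCs (purple circles) for the kinase module genes and most of the genes with the largest or opposed differences (edgeR, bars are SE, 3 libraries a group); an asterisk marks an interaction with adjusted p under 0.05. Tagln has 5.39 after RA and 6.02 in mESCs, with no asterisk, while the difference of Gbp2 (2.93 and 5.78) is smaller after RA.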

How the data were processed

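Poly-A, strand-specific 50 bp libraries were analysed from raw read counts per gene symbol, which the authors deposited for each library without scaling. The submitters' processing notes name mm9 as the build and list DESeq2 1.6.3, HTSeq 0.6.1p1, STAR 2.3.1z13, SAMtools 1.2 and bcl2fastq 1.8.4 without roles; neither an annotation nor whether counting used strand is given in the sources used here. Overlapping and antisense genes and near-identical copies may share or lose reads.

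Of 22609 genes, 19916 had a count, and filterByExpr kept 16280 (5 entries that name no gene were left out; in the libraries of the 3 hairpins in mESCs reads with several alignments made 45.9% to 49.1% of entries). edgeR 4.0.16 in R 4.3.3 fitted 1 mean per group over all 24 libraries (TMM scaling, robust quasi-likelihood F test, 16 residual degrees of freedom, common biological coefficient of variation 0.145). Two-sided p-values were Benjamini-Hochberg adjusted over all genes and called under 0.05. The SE is the log2 difference over the square root of F. The shNMC position uses log2 of mean CPM plus 0.05. Intervals on reads cover counting error only.

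Same-numbered shMed12 and shCdk8 libraries deviated together (residual correlations 0.195, 0.157 and 0.339). The main fit does not pair them, and all values given without mention of the block come from unpaired fits. Only the replicate block, an alternative, takes the numbers as pairs.

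Named genes are the kinase module, the 12 largest rises and falls (at least 5 CPM in a group, groups that do not overlap, no unnamed models, histones or pseudogenes), the 4 lowest-p members of every list holding 3 or more calls, the 4 largest rises and falls of shCdk8 against shNMC, 4 genes each way that the hairpins moved in opposite directions from shNMC, and 8 reference genes. The groups, members, gene lists and rule were chosen with earlier results of these data known. Alternatives were median-ratio scaling, no filter, fits of 6, 9 or 18 libraries, the replicate block, each library left out, DESeq2 1.42.0 and a test against 2-fold. A few named genes are not reported here.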

Additional observations from a re-analysis of the deposited data

Results flagged for a closer look

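Of 153 named genes, 41 had a difference between shMed12 and shCdk8 that itself differed between RA-treated cells and mESCs (edgeR interaction term, Benjamini-Hochberg adjusted p under 0.05 over all genes). Of them 39 are given here. The values in parentheses are the log2 difference after RA minus that in mESCs. In 38 of the 41 the difference was nearer to 0 after RA. Most named genes were chosen for their difference in mESCs, which favours a smaller difference after RA. The 38 are thus no measure of an effect of RA. Over all 16280 genes tested, the interaction passed for 807 (4.96%), 296 with a higher and 511 with a lower log2 difference after RA.

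Among genes with a positive log2 difference in both states, called after RA or not, the difference was smaller after RA for Pax3 (-3.56), T (-3.45), Cav2 (-3.15), Prss23 (-2.90), Gbp2 (-2.85), Psmb8 (-2.84), Oasl2 (-2.76), Gbp1 (-2.65), Tnc (-2.63), Cav1 (-2.07), Wnt3 (-1.99), Col1a1 (-1.80), Eomes (-1.48), Ehd2 (-1.48), Pou3f1 (-1.36), Med12l (-1.20), Lmod1 (-1.15), Pmaip1 (-0.70) and Med14 (-0.61). Among genes with a negative log2 difference in both states, called after RA or not, it was smaller after RA for Tet2 (0.73), Nid1 (0.76), Nanog (0.91), Hes1 (1.04), Hal (1.22), Rarb (1.5), Inhbb (1.70), Prdm14 (1.79), Stra8 (1.92), Sox1 (2.04), Slc11a1 (2.23) and Emx2 (2.5). The sign after RA can rest on a small difference, as for Nanog (log2 -0.03), Hes1 (log2 -0.12) and Med14 (log2 0.20). T did not pass after RA (log2 1.02, edgeR quasi-likelihood test, adjusted p = 0.056). The difference was larger after RA for Pecam1 (-1.16), Sox2 (-0.43) and Junb (0.91). The sign of the log2 difference was opposite after RA for Pfkm (-0.69), Sh3bgrl (-0.64), Pcgf2 (0.40), E2f2 (0.73) and Tal1 (1.79); their differences after RA lay within 0.3 of 0 and were not called. What sets these changes was not tested.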

How the results depend on the processing

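Of 145 named genes called, 136 were called under every one of 14 alternatives that gave a value. The test against 2-fold was not among these 14. No named gene called in the main fit or in an alternative changed sign in that alternative. Signs of genes called in neither were not compared. The 9 lost under at least 1 alternative were Actb, Gapdh, Sh3bgrl, Pmvk, Cdk1, Pou5f1, Hsd17b7, Phc1 and Txnip. Calls between the hairpins (5833) numbered 4534 to 5178 with 1 library left out (2484 to 2814 higher, 2050 to 2364 lower); at least 2-fold, 1380 to 1549 higher and 846 to 933 lower. Named genes called ranged over 136 to 142 and list members called over 258 to 285, of 307. The replicate block gave 10267 genes (5173 higher, 5094 lower) in the 6 libraries and 9198 (4509 and 4689) in 9, and called 5 more named genes, among them Med13, Ccnc, Tbp and Atp1a4; it changed no other call of a named gene. The test against 2-fold called 1122, and 10417 genes were bounded within 2-fold, against 6903 within 1.5-fold. For shCdk8 against shNMC (365 higher, 231 lower) the counts were 1494 and 1004 in 9 libraries, 1517 and 1128 in 18, and 652 and 499 with DESeq2. The difference between states (807 genes) gave 2450 in the 12 libraries of these hairpins. The causes were not tested. Fits against shNMC, the 9-library block included, were added after seeing the data. Depth limits low genes: 3 counts stand for up to 0.0828 CPM.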
